A study of Homo sapiens with 8 samples.

Results

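The data compared here are 4 of the 8 polyA RNA libraries of the study, the 2 of co-culture day 2 (D2_Co, replicates 1 and 3) against the 2 of separate culture (D3_Control, replicates 2 and 3), chosen by the group names in the library titles. The other 4 libraries, of co-culture day 1 (D1_Co) and co-culture day 3 (D3_Co), enter the statistical model and are used to place day 2 between its neighbours. All libraries come from H9, an established human embryonic stem cell line, at passages 41 to 50, with no genetic change or agent given in the labels for any group. The titles are read as day and culture, so that D2_Co is day 2 with co-culture and D3_Control is day 3 without it. Day and culture therefore differ together, and their shares in any difference below cannot be told apart. The labels describe 2 ways of growing primed cells, on Matrigel in mTeSR1, or over inactivated mouse feeder fibroblasts with FGF2 and IWR1, an inhibitor of WNT signalling, in the medium. They do not say which was used for which library, what the partner cells were or how the human cells were recovered. No source states that the 2 libraries of a group are separate cultures, and the p-values reflect only how these libraries spread, which may be technical.

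Primed human embryonic stem cells keep POU5F1, SOX2 and NANOG on and can leave this state toward the primitive streak when NODAL, BMP and WNT signals rise. Co-cultures of pluripotent cells are used to study cell competition, in which cells that lose against their neighbours are removed, often by apoptosis. NF-kB is a family of dimeric transcription factors held inactive in the cytoplasm by inhibitor proteins and released by signals from Toll-like, interleukin and tumour necrosis factor receptors. Its targets include chemokines, survival genes and its own inhibitors. Metallothioneins are small proteins that bind zinc and copper, and their genes are switched on by the zinc-sensing factor MTF1 at metal response elements.

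Levels are given as FPKM, the fragments of a gene divided by its transcript length and by all mapped fragments of its library, and were read after values that stood on other genes' rows had been returned to their own. The sum of FPKM was 421825.5 to 440675 per library, and 21370 to 23372 rows were above 0. Read numbers are not in the table, so depth is unknown. The log2(FPKM + 1) profiles correlated at 0.9925 between the D2_Co libraries and at 0.9935 between the D3_Control libraries, and at 0.9741 to 0.9782 between a D2_Co and a D3_Control library. All differences are D2_Co minus D3_Control of log2(FPKM + 1), so that those of genes with low levels are understated, and all p-values are limma's, adjusted over 12449 genes. Every group holds n = 2 libraries, and a gene is called where its adjusted p is under 0.05.

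Promoters are shown for 4 genes of the NF-kB target and metallothionein lists described below, picked after their values and their motif matches were seen, as examples of windows that hold the motifs. They are the 250 bases before a RefSeq transcript start in GRCh38.p14. IL32 lies at chr16:3065153-3065402, CXCL1 at chr4:73869143-73869392, MT1H at chr16:56669564-56669813 and MT2A at chr16:56608334-56608583, all on the plus strand. In the first pair, which encode cytokines of the NF-kB target list, capitals mark matches of the NF-kB consensus of 10 letters on either strand, and the matches overlap each other. In the second pair, which encode metallothioneins, capitals mark the metal response element core, TGCACNC or TGCGCNC, on either strand.
IL32: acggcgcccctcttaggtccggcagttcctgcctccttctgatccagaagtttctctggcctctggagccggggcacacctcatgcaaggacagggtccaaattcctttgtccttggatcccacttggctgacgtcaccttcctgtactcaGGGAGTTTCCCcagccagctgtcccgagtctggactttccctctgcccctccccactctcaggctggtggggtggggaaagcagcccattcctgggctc
CXCL1: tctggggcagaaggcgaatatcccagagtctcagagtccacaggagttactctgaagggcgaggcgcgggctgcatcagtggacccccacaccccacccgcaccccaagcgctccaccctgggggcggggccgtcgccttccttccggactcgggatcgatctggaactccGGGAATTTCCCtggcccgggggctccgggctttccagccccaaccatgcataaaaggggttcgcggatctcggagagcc
MT1H: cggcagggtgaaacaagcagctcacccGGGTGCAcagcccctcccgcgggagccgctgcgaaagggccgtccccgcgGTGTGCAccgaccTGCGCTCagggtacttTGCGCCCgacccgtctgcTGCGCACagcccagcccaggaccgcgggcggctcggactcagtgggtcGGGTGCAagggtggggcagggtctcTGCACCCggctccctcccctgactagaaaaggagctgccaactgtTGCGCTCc
MT2A: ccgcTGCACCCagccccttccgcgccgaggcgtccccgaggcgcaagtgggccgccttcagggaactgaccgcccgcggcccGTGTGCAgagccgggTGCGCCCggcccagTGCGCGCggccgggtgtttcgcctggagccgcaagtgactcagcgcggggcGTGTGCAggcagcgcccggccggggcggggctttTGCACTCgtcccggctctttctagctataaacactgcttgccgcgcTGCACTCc
The NF-kB consensus was found in this window in 15 of the 23 listed NF-kB targets that have a promoter in the table (65.2%, of 30 tested), and in 3221 of 27305 genes overall (11.8%). The metal response element core was found in 3 of 3 metallothionein genes with a promoter there (of 7 tested), and in 7793 of 27305 genes overall (28.5%). A gene counts when any of its promoters holds the letters. PLAU, TNFAIP2 and CXCL8, whose differences below are larger than that of CXCL1, have no match in their windows, nor has the window of a second IL32 start. These are matches of letters, not measured binding, and a window without a match may still hold a site. The CXCL8 window holds tggaatttcc, which differs only in its first letter from the gggaatttcc marked in CXCL1. The NF-kB list holds genes taken as its targets and was chosen with earlier results known. Its higher share is therefore no result of these libraries.

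The labelled cell type was present in its markers. POU5F1, the core pluripotency factor, had 739 and 734 FPKM in D2_Co, against 769 and 722 FPKM in D3_Control, and the difference was -0.02 (SE 0.05, adjusted p = 0.838). SOX2 had 125 and 117 FPKM in D2_Co, against 138 and 133 FPKM in D3_Control (adjusted p = 0.0758). NANOG had 34.3 and 34.4 FPKM in D2_Co, against 37.2 and 34.7 FPKM in D3_Control (adjusted p = 0.445). These 3 factors did not pass the test. DCN, LUM and FAP, which mark fibroblasts, and PTPRC, which marks blood cells, were listed at 0 in all 8 libraries. Other members of these lists were present. In both D2_Co libraries 3 of 28 fibroblast markers and 4 of 12 haematopoietic and endothelial markers were at 0. The fibroblast marker FBLN1 had 82.1 and 83.7 FPKM in D2_Co, against 80.2 and 84.4 FPKM in D3_Control. RUNX1 of the second list, too low to be tested, had 1.335 and 1.469 FPKM in D2_Co, against 0.179 and 0.204 FPKM in D3_Control. Of the 2 members of that list that were tested, 0 rose and 1, TEK, fell. TEK had 1.31 and 1.15 FPKM in D2_Co, against 3.41 and 3.25 FPKM in D3_Control (difference -0.96).

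Of the 12449 genes, 3116 were called (25%), 1544 of them higher in D2_Co (12.4%) and 1572 lower (12.6%). Rises were larger than falls. A difference beyond 1 was reached by 216 genes that rose and 33 that fell, and beyond 2 by 25 that rose and 4 that fell. The median over all tested genes was -0.04. With median-of-ratios scaling in place of the authors' scaling, 1674 genes were higher and 1122 lower. The number of calls rests on both libraries of each group. It was 1904 without D2_Co replicate 1, 1543 without D2_Co replicate 3, 1644 without D3_Control replicate 2 and 1496 without D3_Control replicate 3. Of the called genes, 67.6% had D2_Co and D3_Control values that stay apart under every row order the sorting allows. Of all tested genes 44.2% did. Calls favour values that are apart, so the higher share is no test of the row restoration.

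**Figure D1:**
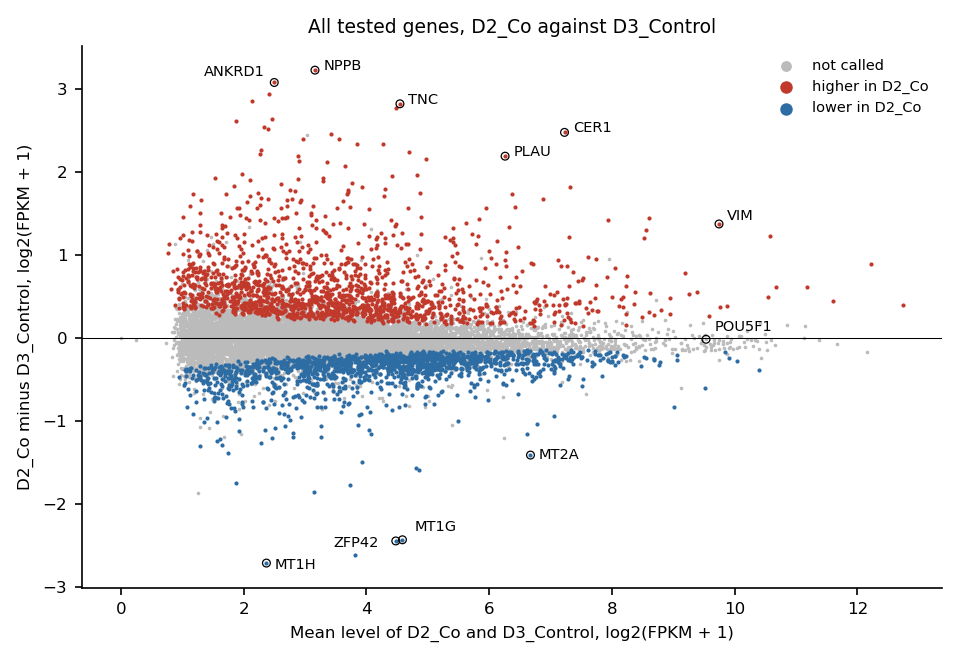
Each point is 1 of 12449 genes, with the mean level of D2_Co and D3_Control on the x axis and the D2_Co minus D3_Control difference on the y axis, both as log2(FPKM + 1). Red points were called higher in D2_Co (1544), blue points lower (1572) and grey points not called; circled genes are named in the text, and differences beyond 2 lie mostly above the zero line.

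The 12 largest rises were led by NPPB, ANKRD1 and WNT10B. NPPB (gene number 4879), which encodes the natriuretic peptide BNP, had 16.0 and 14.3 FPKM in D2_Co, against 0.802 and 0.660 FPKM in D3_Control, a difference of 3.22 (SE 0.16, adjusted p = 5.15e-05). ANKRD1 (gene number 27063), a target of the YAP and TEAD factors, had 8.85 and 9.36 FPKM in D2_Co, against 0.216 and 0.183 FPKM in D3_Control (difference 3.07, SE 0.14, adjusted p = 4.32e-05). TNC (gene number 3371), the matrix protein tenascin-C, had 32.5 and 47.5 FPKM in D2_Co, against 4.68 and 4.76 FPKM in D3_Control (difference 2.82, SE 0.16, adjusted p = 9.28e-05). In each of these genes both D2_Co libraries stood far above both D3_Control libraries. WNT10B, a WNT ligand, had 8.25 and 8.5 FPKM in D2_Co, against 0.251 and 0.209 FPKM in D3_Control (difference 2.93, SE 0.07). FGF17, an FGF ligand, had 5.79 and 7.6 FPKM in D2_Co, against 0.122 FPKM and a listed 0 in D3_Control (difference 2.85, SE 0.14). The levels of both ligands in D3_Control were close to 0. FGF1, another FGF ligand, had 8.27 and 8.63 FPKM in D2_Co, against 0.585 and 0.455 FPKM in D3_Control (difference 2.64, SE 0.12). PTHLH, which encodes the parathyroid hormone-related peptide, had 4.93 and 5.67 FPKM in D2_Co, against 0.0557 FPKM and a listed 0 in D3_Control (difference 2.61, SE 0.16), and its exons overlap those of another gene. IGFBP5, which binds insulin-like growth factors, had 7.78 and 8.09 FPKM in D2_Co, against 0.519 and 0.615 FPKM in D3_Control (difference 2.51, SE 0.09). The other 4 of the 12 largest rises were of GARIN1B, listed in the table as FAM71F1 (2.76), S100A3, a calcium-binding protein (2.54), CER1 (2.47) and the neural factor SOX14 (2.45).

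The 12 largest falls were led by metallothioneins and by ZFP42. ZFP42 (gene number 132625), also called REX1 and used as a marker of undifferentiated stem cells, had 6.01 and 5.82 FPKM in D2_Co, against 36.5 and 36.8 FPKM in D3_Control, a difference of -2.45 (SE 0.06, adjusted p = 6.58e-06). The 2 libraries of each group differed by far less than the groups did. FOXJ1, the master factor of motile cilia, had 4.78 and 5.25 FPKM in D2_Co, against 18.6 and 20.5 FPKM in D3_Control (difference -1.77, SE 0.08). CBR1, a carbonyl reductase whose exons overlap those of another gene, had 7.2 and 6.71 FPKM in D2_Co, against 19.4 and 23.9 FPKM in D3_Control (difference -1.50, SE 0.10). DHRS2, a dehydrogenase, had 2.88 and 2.76 FPKM in D2_Co, against 14.4 and 11.4 FPKM in D3_Control (difference -1.85, SE 0.15), but with rows restored against D3_Control the difference was 0.19, so its direction depends on how its row was restored. The calls of 3 more genes among the 12 rest on single libraries. AJAP1, a junction protein (difference -1.39), was not called without D2_Co replicate 1 (adjusted p = 0.119), D3_Control replicate 2 (0.0827) or D3_Control replicate 3 (0.118). The long RNA LOC105370482 (-1.75) was not called without D3_Control replicate 2 (adjusted p = 0.0683) or replicate 3 (0.0913). MIR3615, the row of a microRNA gene whose exons overlap another gene and whose mature RNA a polyA library does not measure, differed by -2.62 and was not called without D2_Co replicate 1 (adjusted p = 0.14), D3_Control replicate 2 (0.12) or D3_Control replicate 3 (0.111).

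**Figure D2:**
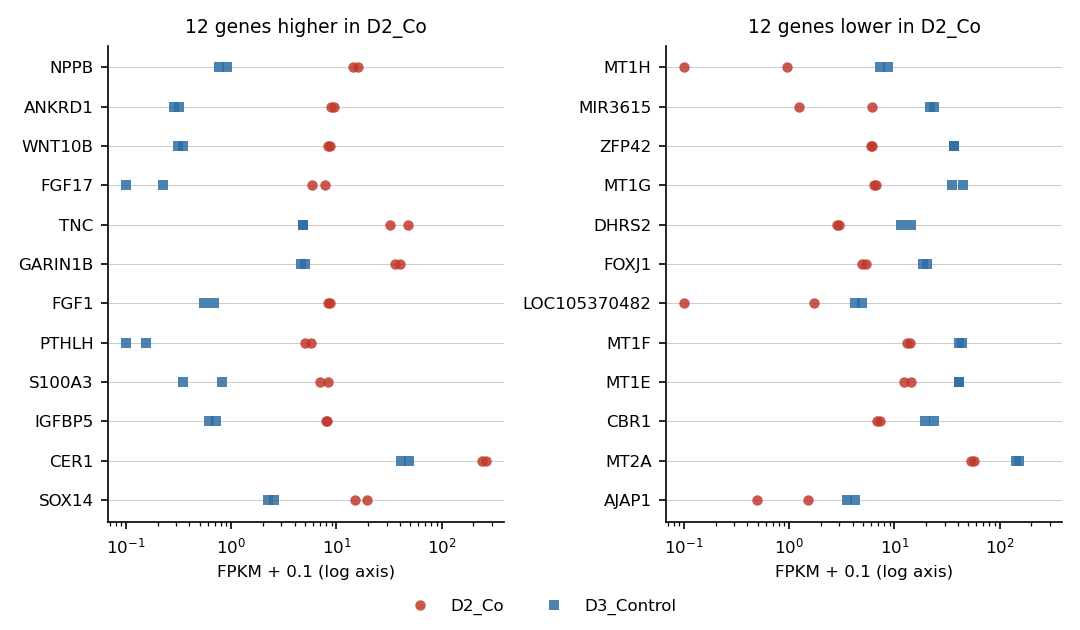
FPKM + 0.1 on a log axis for the 12 genes with the largest rise (left panel) and the largest fall (right panel) in D2_Co, each library a point, red circles for D2_Co and blue squares for D3_Control. No gene shows an overlap between the groups, a condition for being drawn here, and points at the left edge are listed at 0.

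NF-kB target genes rose together. Of 39 listed targets 30 were tested, of which 23 rose (differences 0.26 to 2.19), 0 fell and 7 were not called (-0.31 to 0.43). The median was 0.80, against -0.04 over all genes. PLAU, the urokinase plasminogen activator, had 120 and 129 FPKM in D2_Co, against 28.9 and 24.4 FPKM in D3_Control (difference 2.19, SE 0.10, adjusted p = 4.32e-05). IL32, the cytokine whose promoter is printed above, had 14.7 and 16.7 FPKM in D2_Co, against 2.83 and 2.86 FPKM in D3_Control (difference 2.11, SE 0.15). TNFAIP2, a protein induced by tumour necrosis factor, had 29.6 and 30.0 FPKM in D2_Co, against 7.65 and 8.11 FPKM in D3_Control (difference 1.79, SE 0.05). The D2_Co levels of these targets were several times those of D3_Control in both libraries. The neutrophil chemokine CXCL8 had 2.64 and 2.29 FPKM in D2_Co, against 0.0939 FPKM and a listed 0 in D3_Control (difference 1.73, SE 0.14). It passed the filter of 1 FPKM on the mean of all libraries only through co-culture. CXCL1, a chemokine of the same family whose reads near-identical relatives may share, had 5.25 and 5.92 FPKM in D2_Co, against 0.884 and 1.15 FPKM in D3_Control (difference 1.71, SE 0.21). Without any 1 library, 19 to 23 targets still rose. The exons of PLAU overlap those of another gene.

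Among the factors themselves, NFKB2, which encodes p100 and p52, had 17.3 and 17.7 FPKM in D2_Co, against 4.94 and 4.89 FPKM in D3_Control (difference 1.65, SE 0.05, adjusted p = 1.8e-05). NFKB1, which encodes p105 and p50, had 6.25 and 5.77 FPKM in D2_Co, against 3.65 and 3.35 FPKM in D3_Control (difference 0.64, SE 0.07). Both rose, and both are also on the target list. RELA, the p65 subunit, had 19.0 and 19.7 FPKM in D2_Co, against 16.2 and 17.0 FPKM in D3_Control (difference 0.21, SE 0.08, adjusted p = 0.09). MYD88, the adaptor of Toll-like and interleukin receptors, had 15.7 and 14.8 FPKM in D2_Co, against 15.4 and 15.0 FPKM in D3_Control (difference 0.01, SE 0.06, adjusted p = 0.96). Among receptors, adaptors and kinases of the pathway, 17 of 21 tested components were above 0, with a median of 0.14, against -0.04 over all genes. Over all genes 12.4% were called higher and 12.6% lower. Of the 21 components 4 rose and 0 fell. The 4 became 1 without D2_Co replicate 3 and 2 without D3_Control replicate 2. The largest rise among them was that of RIPK1, a kinase below the tumour necrosis factor receptor, with 13.4 and 13.2 FPKM in D2_Co, against 8.43 and 8.15 FPKM in D3_Control (difference 0.62, SE 0.07).

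Immediate early genes, which are transcribed within minutes of a stimulus, were mostly higher. Of 22 tested 15 rose (0.25 to 1.93), 0 fell and 7 were not called (-0.40 to 0.31), with a median of 0.39, and 6 of the rows are unsettled by the row restoration. FOSL2, an AP-1 subunit, had 14.3 and 14.6 FPKM in D2_Co, against 3.50 and 2.92 FPKM in D3_Control (difference 1.88, SE 0.08). FOSL1, another AP-1 subunit, had 54.4 and 58.4 FPKM in D2_Co, against 24.3 and 24.4 FPKM in D3_Control (difference 1.18, SE 0.11). Both AP-1 genes were separated from D3_Control in each library. KLF6, a zinc finger factor, had 23.5 FPKM in each D2_Co library, against 8.13 and 6.64 FPKM in D3_Control (difference 1.55, SE 0.10). JUNB, also of AP-1, had 14.9 and 14.1 FPKM in D2_Co, against 2.78 and 3.39 FPKM in D3_Control, on an unsettled row that overlaps another gene. MYC had 31.5 and 29.2 FPKM in D2_Co, against 25.8 and 24.8 FPKM in D3_Control (difference 0.25, adjusted p = 0.0238), and was not called without D2_Co replicate 1 (adjusted p = 0.11), D3_Control replicate 2 (0.066) or D3_Control replicate 3 (0.116). MYCN had 20.2 and 18.1 FPKM in D2_Co, against 25.8 and 27.7 FPKM in D3_Control (difference -0.46, adjusted p = 0.00817), and was not called without D2_Co replicate 3 (0.0505) or D3_Control replicate 3 (0.0551).

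Genes of the amino acid stress response, driven by the factors ATF4 and CHOP, rose together. Of 31 tested 27 rose (0.20 to 1.39), 1 fell (-0.27) and 3 were not called, with a median of 0.53. The background over all 12449 genes was 12.4% called higher and 12.6% lower, with a median of -0.04. INHBE, an inhibin subunit, had 6.78 and 5.99 FPKM in D2_Co, against 2.03 and 1.63 FPKM in D3_Control (difference 1.39, SE 0.10). DDIT4, an inhibitor of mTOR signalling whose exons overlap another gene, had 21.0 and 22.0 FPKM in D2_Co, against 7.6 and 7.7 FPKM in D3_Control (difference 1.38, SE 0.07). CHAC1, which degrades glutathione, had 33.2 and 33.3 FPKM in D2_Co, against 15.4 and 14.1 FPKM in D3_Control (difference 1.12, SE 0.08). Between 21 and 28 members rose when any 1 library was left out, and the fall was not called without any 1 of the D2_Co and D3_Control libraries. Chaperones of the endoplasmic reticulum stayed near the background: 3 of 21 rose and 2 fell, with a median of -0.06, and the 2 falls became 0 or 1 without any 1 library. Of the aminoacyl-tRNA synthetases 4 of 20 rose and 3 fell, the 3 becoming 0 without D2_Co replicate 3 or D3_Control replicate 2 and 1 without D3_Control replicate 3.

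Mesenchymal genes rose almost throughout. Of 25 tested 22 rose (0.36 to 2.07), 0 fell and 3 were not called, and the median was 0.74. TWIST1, a factor of mesenchymal transition, had 18.6 and 19.9 FPKM in D2_Co, against 4.51 and 3.22 FPKM in D3_Control (difference 2.07, SE 0.17). VIM, the intermediate filament vimentin, had 1184 and 1288 FPKM in D2_Co, against 542 and 420 FPKM in D3_Control (difference 1.37, SE 0.12), and its exons overlap those of another gene. Both genes were higher in each D2_Co library than in either D3_Control library. ITGAV, the integrin alpha V chain, had 31.7 and 33.8 FPKM in D2_Co, against 14 and 12.1 FPKM in D3_Control (difference 1.27, SE 0.07). Markers of fibroblasts moved with this group. Their summed level was 2129 and 2280 FPKM in D2_Co, against 1272 and 1155 FPKM in D3_Control, with 12 of 20 tested members higher and 0 lower, and several members, VIM and TWIST1 among them, are on both lists. Most of that rise was VIM, and without it the sum was 944.4 and 992.6 FPKM in D2_Co, against 730.6 and 734.7 FPKM in D3_Control. Matrix genes of the list were among the rises. The collagen V chains differed by 1.03 for COL5A1, on an unsettled row, and by 0.56 for COL5A2, the protease inhibitor TIMP3 by 0.82 and the matrix protease MMP2 by 0.46. Set as defining for fibroblasts were COL1A1, COL1A2, COL3A1, DCN, LUM, PDGFRB and POSTN, of which 3 were high enough to be tested and 1, COL1A2, a chain of type I collagen, was called. It had 16.6 and 19.7 FPKM in D2_Co, against 13.3 and 11.8 FPKM in D3_Control (difference 0.49, SE 0.09, limma adjusted p = 0.00899), and lost its call without D3_Control replicate 3 (difference 0.42, limma adjusted p = 0.0574). PDGFRB, a growth factor receptor, had 1.94 and 1.80 FPKM in D2_Co, against 1.42 and 1.33 FPKM in D3_Control (limma adjusted p = 0.0879), and POSTN, too low to be tested, had 0.775 and 0.730 FPKM in D2_Co, against 0.661 FPKM in each D3_Control library. DCN and LUM, like the activated-fibroblast marker FAP, were listed at 0 in both groups, COL3A1 was at 0.00835 and 0.00498 FPKM in D2_Co, against 0.00972 and 0.0492 FPKM in D3_Control, and COL1A1 had 28.3 and 30.3 FPKM in D2_Co, against 27.6 and 28.8 FPKM in D3_Control (adjusted p = 0.608). In bulk RNA a change in the share of cells of a type and a change in RNA per cell cannot be told apart.

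The actin cytoskeleton changed in the same direction. Of 27 actin and contractile genes 23 rose (0.26 to 1.73), 1 fell (-0.39) and 3 were not called, with a median of 0.47. ACTA1, skeletal muscle actin, had 126 and 127 FPKM in D2_Co, against 35.9 and 39.3 FPKM in D3_Control (difference 1.73, SE 0.12). ACTC1, cardiac actin, had 19.8 and 17.8 FPKM in D2_Co, against 5.07 and 4.87 FPKM in D3_Control (difference 1.73, SE 0.09). Actin genes have near-identical copies, so the split of reads between them is uncertain. CNN1, calponin of smooth muscle, had 88.5 and 94.1 FPKM in D2_Co, against 32.2 and 28.2 FPKM in D3_Control (difference 1.57, SE 0.10). TAGLN2, a transgelin, had 515 and 555 FPKM in D2_Co, against 231 and 204 FPKM in D3_Control (difference 1.3, SE 0.08). Targets of YAP and TEAD, which respond to cell tension and density, rose in 12 of 21 cases (0.26 to 3.07), with 0 falls. ANKRD1 led this list, followed by F3, tissue factor, with 7.48 and 8.55 FPKM in D2_Co, against 2.35 and 2.26 FPKM in D3_Control (difference 1.45, SE 0.12). NUAK2, a kinase, differed by 1.22 and AXL, a receptor tyrosine kinase, by 1.13.

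Of 30 integrin and matrix genes tested, 16 rose and 1 fell, with a median of 0.33, and the 1 fall was not called without either D2_Co or either D3_Control library. The collagen receptor chain ITGA2 had 3.0 and 3.47 FPKM in D2_Co, against 1.11 and 1.21 FPKM in D3_Control (difference 0.97). The laminin receptor chain ITGA3 had 58.5 and 59.0 FPKM in D2_Co, against 30.3 and 26.9 FPKM in D3_Control (difference 1.02). The fibronectin receptor chain ITGA5 had 31.9 and 30.7 FPKM in D2_Co, against 16.6 and 15.7 FPKM in D3_Control (difference 0.91). Each chain was higher in both D2_Co libraries. In the urokinase system, which activates plasmin at the cell surface, 8 of 9 tested genes rose. PLAT, the tissue plasminogen activator, had 27.0 and 25.4 FPKM in D2_Co, against 11.8 and 10.9 FPKM in D3_Control (difference 1.14, SE 0.08). PLAU, given above, had the largest rise of this list. Binding proteins of insulin-like growth factors rose as well: beside IGFBP5, IGFBP6 differed by 1.37, IGFBP7 by 1.25 on a row with overlapping exons and IGFBP3 by 1.20, while 6 of the 14 genes tested in the system rose and 1 fell.

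**Figure D3:**
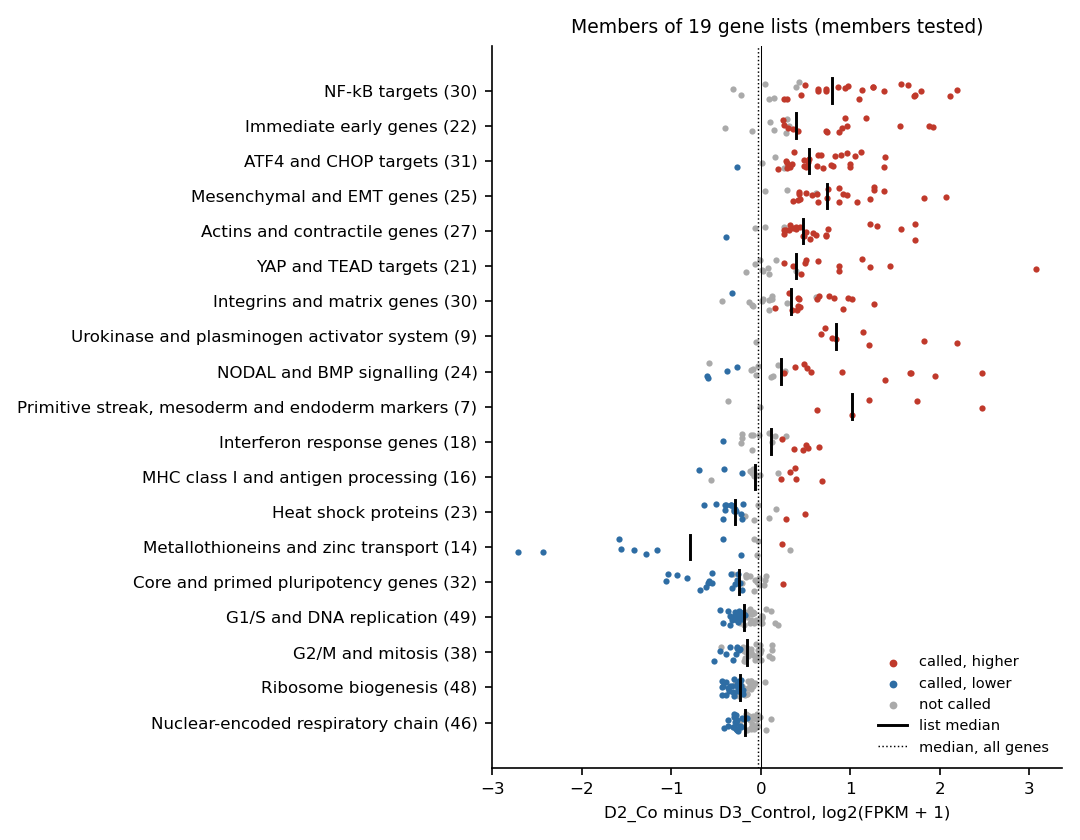
Members of 19 gene lists by their D2_Co minus D3_Control difference on the log2(FPKM + 1) scale, each point a gene, with the number of members tested beside the list's name. Red and blue points were called, grey points were not, black bars are list medians and the dotted line is the median of all genes (-0.04); the NF-kB, ATF4, mesenchymal and actin lists lie mostly to the right and the metallothioneins reach farthest to the left.

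NODAL and BMP signalling genes were more often higher than lower. Of 24 tested 11 rose and 4 fell, with a median of 0.23, and the 4 falls became 2 without D2_Co replicate 1 or D3_Control replicate 3. CER1 (gene number 9350), a secreted antagonist of NODAL and BMP made in anterior endoderm, had 242 and 264 FPKM in D2_Co, against 48.6 and 41.2 FPKM in D3_Control (difference 2.47, SE 0.10, adjusted p = 2.61e-05). LEFTY2, a NODAL antagonist, had 30.6 and 35.3 FPKM in D2_Co, against 9.24 and 6.53 FPKM in D3_Control (difference 1.95, SE 0.15). CER1 had by far the higher level of the pair. GREM1, a BMP antagonist, had 9.27 and 8.60 FPKM in D2_Co, against 2.22 and 2.07 FPKM in D3_Control (difference 1.66, SE 0.11). SP5, a direct WNT target, had 2.97 and 4.24 FPKM in D2_Co, against 0.154 and 0.253 FPKM in D3_Control (difference 1.92, SE 0.15). It is on the list of WNT signalling and targets, as is WNT10B. Of 15 members tested 7 rose (0.28 to 2.93), 4 fell (-0.81 to -0.29) and 4 were not called. Fewer rises were called when any 1 library was left out. Only 7 of 20 markers of primitive streak, mesoderm and endoderm reached a mean of 1 FPKM and were tested. Of these 5 rose, 0 fell and 2 were not called, both with differences below 0. The endoderm factor FOXA2 was 1 of the 2, with 1.01 and 1.14 FPKM in D2_Co, against 1.71 and 1.64 FPKM in D3_Control (difference -0.37). CXCR4, a chemokine receptor of definitive endoderm, had 5.81 and 6.66 FPKM in D2_Co, against 0.872 and 1.49 FPKM in D3_Control (difference 1.74, SE 0.14). EOMES, a T-box factor of the streak, had 0.989 and 1.60 FPKM in D2_Co, against 0.179 and 0.0724 FPKM in D3_Control (difference 1.02, SE 0.15). LHX1, a homeobox factor, had 1.42 and 2.06 FPKM in D2_Co, against 0.175 and 0.182 FPKM in D3_Control (difference 1.21, SE 0.14). EOMES and LHX1 passed the filter of 1 FPKM on the mean only through the co-culture libraries of days 1 and 2, where they were high. Their tests and the count of 5 rises and 0 falls are therefore partly shaped by the filter. Summed over the 20 markers the level was 274.1 and 298.5 FPKM in D2_Co, against 68.83 and 64.76 FPKM in D3_Control, most of it CER1.

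Beside POU5F1, SOX2 and NANOG, which did not pass the test, many other pluripotency genes were lower. Of 32 core and primed pluripotency genes tested, 17 fell (-1.06 to -0.21), 1 rose (0.25) and 14 were not called, with a median of -0.24. The 1 rise was not called without D2_Co replicate 3 or D3_Control replicate 3. FOXD3, a forkhead factor, had 5.56 and 4.83 FPKM in D2_Co, against 11.3 and 12.5 FPKM in D3_Control (difference -1.06, SE 0.11). TERF1, a telomere-binding protein, had 76.2 and 66.5 FPKM in D2_Co, against 144 and 151 FPKM in D3_Control (difference -1.04, SE 0.07). DNMT3B, a methyltransferase that sets new DNA methylation, had 389 and 351 FPKM in D2_Co, against 652 and 663 FPKM in D3_Control (difference -0.83, SE 0.07). In all 3 genes the groups did not overlap. CRABP1, which binds retinoic acid and has overlapping exons, had 90.2 and 90.4 FPKM in D2_Co, against 172 and 176 FPKM in D3_Control (difference -0.94, SE 0.06). Among 11 naive pluripotency genes tested 3 rose and 3 fell. ZFP42 fell, while KLF5, a zinc finger factor, had 11.6 FPKM in each D2_Co library, against 3.79 and 3.13 FPKM in D3_Control (difference 1.50, SE 0.10). TFAP2C, an AP-2 factor, had 25.2 and 26.3 FPKM in D2_Co, against 10.8 and 9.48 FPKM in D3_Control (difference 1.26, SE 0.09).

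All 7 metallothionein genes tested fell, with differences of -2.71 to -1.16. MT2A (gene number 4502) had 53 and 56.6 FPKM in D2_Co, against 143 and 152 FPKM in D3_Control (difference -1.41, SE 0.08, adjusted p = 9.28e-05). MT1X had 60.0 and 59.4 FPKM in D2_Co, against 127 and 143 FPKM in D3_Control (difference -1.16). MT1G had 6.62 and 6.33 FPKM in D2_Co, against 34.8 and 44.4 FPKM in D3_Control (difference -2.43, SE 0.12). Abundant and scarce members both fell, although near-identical copies make the split of reads among them uncertain. MT1F differed by -1.59 and MT1E by -1.56. MT1H had 0.843 FPKM and a listed 0 in D2_Co, against 8.62 and 7.23 FPKM in D3_Control (difference -2.71, SE 0.26). MT1M had 1.14 and 0.496 FPKM in D2_Co, against 2.69 and 4.16 FPKM in D3_Control (difference -1.29), and was not called without D2_Co replicate 3 (adjusted p = 0.0903) or D3_Control replicate 3 (0.0916). Of the 7 zinc transport genes and zinc-sensing factors on the same list, 2 fell, 1 rose and 4 were not called, and the rise was not called without 6 of the 8 libraries in turn, D2_Co replicate 1 and D3_Control replicate 2 among them.

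Heat shock proteins, which fold other proteins, were mostly lower, with 15 of 23 lower (-0.64 to -0.20), 2 higher and a median of -0.28. The 15 became 7 without D2_Co replicate 3 and 7 without D3_Control replicate 3, and the 2 rises became 1 without D2_Co replicate 3 or either D3_Control library. HSPA4 had 96.8 and 91.5 FPKM in D2_Co, against 124 and 129 FPKM in D3_Control (difference -0.42, SE 0.05). HSPA1A, which shares reads with a near-identical copy, had 28.3 and 28.6 FPKM in D2_Co, against 44.1 and 45.6 FPKM in D3_Control (difference -0.64, SE 0.07). FKBP4, an HSP90 partner with overlapping exons, differed by -0.50. The small heat shock protein HSPB1 went the other way, with 327 and 351 FPKM in D2_Co, against 243 and 238 FPKM in D3_Control (difference 0.49, SE 0.07).

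Some growth and division genes were lower, by small amounts, and none of the lists given here had a member called higher. Of 48 ribosome biogenesis genes 30 fell (-0.43 to -0.20), 0 rose and 18 were not called, with a median of -0.24. Of 46 nuclear genes of the respiratory chain 21 fell (-0.41 to -0.16), 0 rose and 25 were not called, with a median of -0.18. Of 49 genes of G1/S and DNA replication 21 fell (-0.45 to -0.17), 0 rose and 28 were not called. Of 38 genes of G2/M and mitosis 11 fell (-0.52 to -0.23), 0 rose and 27 were not called. Of 59 cytosolic ribosomal protein genes 2 fell, 0 rose and 57 were not called, with a median of -0.11. Over all 12449 genes 12.6% were called lower and 12.4% higher. Falls thus took a smaller share of these 59 genes than of all genes. NAT10, an RNA acetyltransferase of the nucleolus, had 28.2 and 27.2 FPKM in D2_Co, against 37.6 and 37.8 FPKM in D3_Control (difference -0.43, SE 0.06). NDUFB5, a subunit of complex I, had 30.4 and 29.2 FPKM in D2_Co, against 41.1 and 36.6 FPKM in D3_Control (difference -0.37, SE 0.06). CCNE1, cyclin E1, had 19.8 and 19.4 FPKM in D2_Co, against 26.9 and 27.5 FPKM in D3_Control (difference -0.45, SE 0.05). All these falls were small, the largest being -0.52 in the mitosis list. TOP2A, the topoisomerase of mitosis, had 42.1 and 42.2 FPKM in D2_Co, against 56.1 and 54.8 FPKM in D3_Control (difference -0.39, SE 0.04). BUB3, a checkpoint protein, had 52.8 and 51.0 FPKM in D2_Co, against 66.1 and 66.4 FPKM in D3_Control (difference -0.35, SE 0.04). These counts rest on all 4 libraries. Without D2_Co replicate 1, D2_Co replicate 3, D3_Control replicate 2 and D3_Control replicate 3, in that order, the falls were 16, 7, 9 and 9 for ribosome biogenesis, 4, 7, 3 and 6 for the respiratory chain, 13, 5, 7 and 7 for G1/S, 6, 6, 5 and 5 for G2/M, and 1, 0, 0 and 2 for ribosomal proteins.

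Most genes of cell death were not called, as among all 12449 genes, of which 25% were called. Of 23 pro-apoptotic genes 5 rose, 2 fell and 16 were not called, with a median of 0.08, and the 2 falls became 0 without either D2_Co library or D3_Control replicate 3 and 1 without D3_Control replicate 2. BMF, a BH3-only protein, had 5.6 and 6.31 FPKM in D2_Co, against 2.74 and 2.61 FPKM in D3_Control (difference 0.92, SE 0.09). Of 11 anti-apoptotic genes 2 rose, 0 fell and 9 were not called, and the 2 became 1 without D2_Co replicate 1 or D3_Control replicate 2 and 0 without the other 2 libraries. BCL2L1, the survival protein BCL-XL, had 48.9 and 50.8 FPKM in D2_Co, against 45.9 and 39.3 FPKM in D3_Control (adjusted p = 0.069), on an unsettled row with overlapping exons. CDKN1A, an inhibitor of cyclin-dependent kinases, had 33.5 and 33.9 FPKM in D2_Co, against 26.0 and 22.9 FPKM in D3_Control (difference 0.45, adjusted p = 0.0195), on an unsettled row, and was not called without D2_Co replicate 1 (0.071), D2_Co replicate 3 (0.0869) or D3_Control replicate 3 (0.105). Of 30 genes linked to cell competition in animals 7 rose and 1 fell, with a median of -0.00, and the 1 fall was not called without either D2_Co library or D3_Control replicate 3. That share of calls is near the 25% of all genes.

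Among 16 genes of MHC class I presentation 5 rose and 3 fell, and the 5 became 3 without D2_Co replicate 3 and 2 without D3_Control replicate 3. The rises were 0.22 to 0.69 and the falls -0.69 to -0.21. The median was -0.07, and 10 of the 16 members were below 0. Over all 12449 genes 12.4% were called higher and 12.6% lower. HLA-B had 37.5 and 40.9 FPKM in D2_Co, against 23.3 and 24.5 FPKM in D3_Control (difference 0.69, SE 0.06). HLA-C had 157 and 162 FPKM in D2_Co, against 123 and 119 FPKM in D3_Control (difference 0.40, SE 0.05). Both genes, which encode chains that present peptides, were higher in each D2_Co library. HLA genes share reads with each other, and the exons of HLA-B overlap those of another gene. Of 18 interferon response genes tested, out of 38 listed, 6 rose and 1 fell, and the 6 became 2 or 3 without any 1 of the 4 libraries.

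Single genes of metabolic stress rose or fell strongly. BHLHE40, a clock and hypoxia factor, had 41.3 and 42.6 FPKM in D2_Co, against 8.57 and 7.66 FPKM in D3_Control (difference 2.24, SE 0.08). NDRG1, which hypoxia and nutrient stress induce, had 10.6 and 10.1 FPKM in D2_Co, against 3.59 and 1.91 FPKM in D3_Control (difference 1.64, SE 0.19). SLC16A3, a lactate exporter, had 5.22 and 5.12 FPKM in D2_Co, against 1.35 and 1.26 FPKM in D3_Control (difference 1.42, SE 0.09). For the list counts that follow, the shares over all 12449 genes were 12.4% called higher and 12.6% lower. Of the 23 hypoxia genes tested 8 rose and 2 fell, the 2 falls becoming 0 without any 1 of the 4 libraries, and of 21 glycolysis genes 4 rose and 6 fell, the 6 becoming 2 without any 1 of them and the 4 becoming 2 without D2_Co replicate 3 or D3_Control replicate 3. SQSTM1, the autophagy receptor p62 with overlapping exons, had 124 and 115 FPKM in D2_Co, against 57.6 and 53.3 FPKM in D3_Control (difference 1.09, SE 0.06). SLC7A11, the cystine importer, differed by 0.99, and HMOX1, heme oxygenase, had 23.5 and 22.4 FPKM in D2_Co, against 38.5 and 37.2 FPKM in D3_Control (difference -0.70, SE 0.08). The oxidative stress list, to which these 3 belong, held 6 rises, 3 without D3_Control replicate 3, and 3 falls among 24 genes. CH25H, which makes 25-hydroxycholesterol, had 18.9 and 18.7 FPKM in D2_Co, against 6.0 and 5.31 FPKM in D3_Control (difference 1.58, SE 0.08), but was not called with rows restored against D3_Control (0.60, adjusted p = 0.282). ABCA1, a cholesterol exporter, had 3.62 and 3.39 FPKM in D2_Co, against 7.97 FPKM in each D3_Control library (difference -0.99, SE 0.08).

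To see whether day 2 lay between its neighbours, D2_Co was tested against the mean of D1_Co and D3_Co in the same model, a comparison within co-culture in which the day alone is labelled as different. Of 12449 genes 548 were called (4.4%), 340 higher on day 2 (2.73%) and 208 lower (1.67%). In 296 of the higher genes both day 2 libraries were above all 4 libraries of the other days, and in 184 of the lower genes they were below all 4. These counts rest on the day 2 libraries, with 34 calls without D2_Co replicate 1 and 28 without D2_Co replicate 3. They also moved to 215 without D1_Co replicate 2, 224 without D1_Co replicate 3, 155 without D3_Co replicate 1 and 355 without D3_Co replicate 2, and to 280 and 281 without D3_Control replicates 2 and 3, which enter the spread alone. Of the 15 genes named by size, 8 were called both without D2_Co replicate 1 and without D2_Co replicate 3, namely IGFBP5, ACTC1, ACTG2, ACTA1, GLIPR1, ZFP42, S100A6 and CBR1.

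ZFP42 was lowest on day 2, with 11 and 12.4 FPKM on day 1, 6.01 and 5.82 FPKM on day 2 and 30.2 and 30.8 FPKM on day 3 of co-culture. Its day 2 level was 1.53 below the mean of days 1 and 3 (difference -1.53, SE 0.06, adjusted p = 0.000203), and it differed by -0.87 from day 1 (adjusted p = 0.00298) and by -2.19 from day 3 (adjusted p = 4.4e-05). CBR1 had 11.9 and 12.6 FPKM on day 1, 7.2 and 6.71 FPKM on day 2 and 26.8 and 25.2 FPKM on day 3 (difference -1.25, SE 0.08). Both genes thus had a day 2 trough within co-culture, in each library. S100A6, a calcium-binding protein, had 1.93 and 2.69 FPKM on day 1, 0.7 and 0.735 FPKM on day 2 and 5.24 and 4.65 FPKM on day 3 (difference -1.36, SE 0.11).

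Of 4 muscle-type actin genes 3 were highest on day 2. ACTA1 had 39.0 and 29.6 FPKM on day 1, 126 and 127 FPKM on day 2 and 59.5 and 56.4 FPKM on day 3 (difference 1.49, SE 0.10, adjusted p = 0.0022). ACTC1 had 3.96 and 3.53 FPKM on day 1, 19.8 and 17.8 FPKM on day 2 and 8.87 and 7.91 FPKM on day 3 (difference 1.57, SE 0.08). Smooth muscle actin ACTG2 had 21.3 and 16.7 FPKM on day 1, 86.0 and 91.5 FPKM on day 2 and 47.9 and 49.8 FPKM on day 3 (difference 1.51, adjusted p = 0.0035). ACTG2 was 60.1 and 47.0 FPKM in D3_Control, above its day 1 level, and its rise of 0.73 over D3_Control was not called without D2_Co replicate 3 (adjusted p = 0.0587). The fourth, smooth muscle ACTA2 with overlapping exons, had 6.30 and 7.98 FPKM on day 1, 6.35 and 6.80 FPKM on day 2 and 12.4 and 11.6 FPKM on day 3 (difference -0.44, adjusted p = 0.0446), and against the 6.31 FPKM of each D3_Control library day 2 differed by 0.05 (adjusted p = 0.752). Of the 27 actin and contractile genes 12 were called higher on day 2 than the mean of its neighbours, and ACTA2 alone lower. The 12 became 4 without D2_Co replicate 1, 3 without D2_Co replicate 3, 8 without D1_Co replicate 2, 7 without D1_Co replicate 3 and 8 without either D3_Co library, and ACTA2 kept its call only without D1_Co replicate 2. IGFBP5 had 2.17 and 1.88 FPKM on day 1, 7.78 and 8.09 FPKM on day 2 and 1.53 and 1.61 FPKM on day 3 (difference 1.68, SE 0.08, adjusted p = 0.000363). GLIPR1, a secreted protein with overlapping exons, had 1.86 and 1.48 FPKM on day 1, 6.59 and 7.16 FPKM on day 2 and 1.99 and 2.21 FPKM on day 3 (difference 1.45). NPPB had 6.96 and 6.01 FPKM on day 1, 16.0 and 14.3 FPKM on day 2 and 3.47 and 5.19 FPKM on day 3 (difference 1.36, SE 0.14), a call lost without D2_Co replicate 1 (adjusted p = 0.064) or D2_Co replicate 3 (adjusted p = 0.0618).

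Other rises were not at their highest on day 2. CER1 had 367 and 320 FPKM on day 1, 242 and 264 FPKM on day 2 and 97.4 and 100.3 FPKM on day 3 (day 2 minus day 1 -0.44, adjusted p = 0.0431). CXCR4 had 8.24 and 7.96 FPKM on day 1, 5.81 and 6.66 FPKM on day 2 and 2.19 and 2.03 FPKM on day 3, where day 2 did not differ from day 1 by the test (adjusted p = 0.18). EOMES had 3.67 and 4.11 FPKM on day 1, 0.989 and 1.60 FPKM on day 2 and 0.150 and 0.142 FPKM on day 3. The levels of these streak and endoderm genes were ordered from day 1 down to day 3. PLAU had 126 and 113 FPKM on day 1, 120 and 129 FPKM on day 2 and 121 and 136 FPKM on day 3 (day 2 minus the mean of its neighbours 0.01, adjusted p = 0.963). NFKB2 had 17.6 and 16.9 FPKM on day 1, 17.3 and 17.7 FPKM on day 2 and 15.2 and 15.3 FPKM on day 3 (adjusted p = 0.22). IL32 had 4.79 and 7.09 FPKM on day 1, 14.7 and 16.7 FPKM on day 2 and 16.8 and 15.7 FPKM on day 3. Across the days PLAU and NFKB2 were thus near level, while IL32 was lowest on day 1. MT2A had 47.0 and 40.1 FPKM on day 1, 53 and 56.6 FPKM on day 2 and 70.6 and 68.1 FPKM on day 3, all below the 143 and 152 FPKM of D3_Control.

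**Figure D4:**
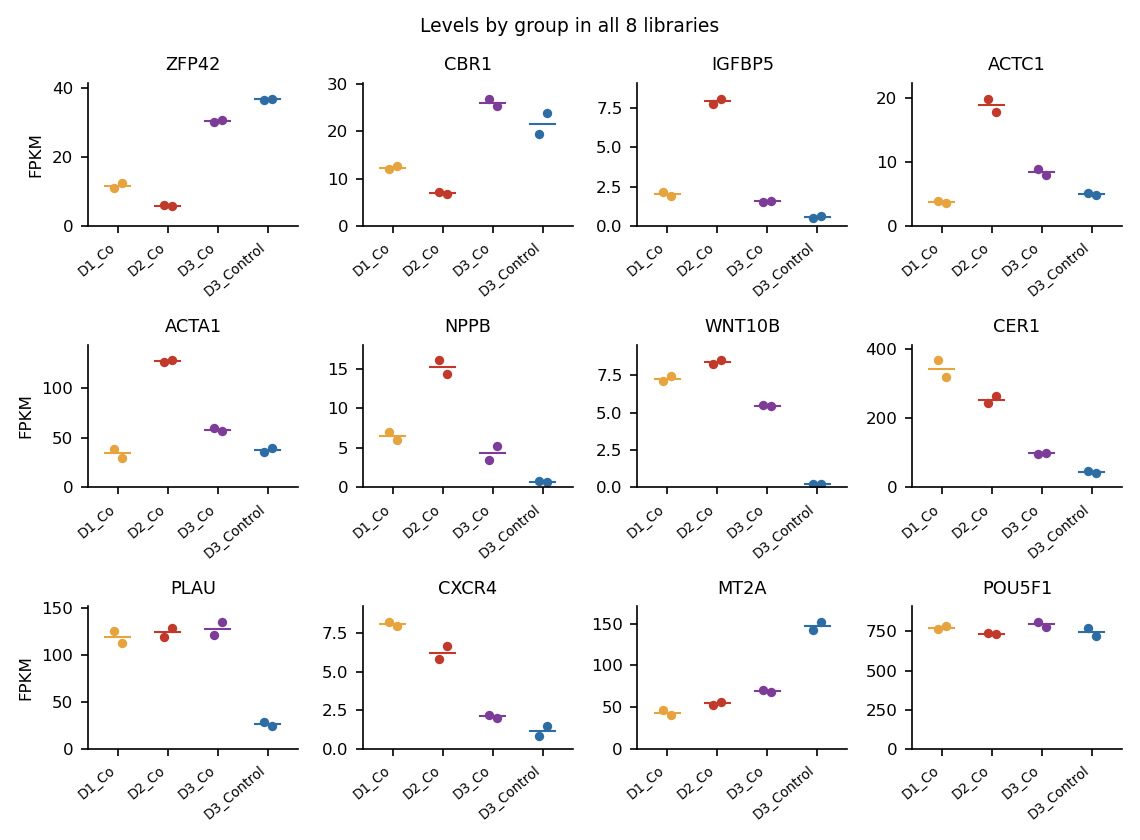
FPKM of 12 genes in the 3 co-culture days and D3_Control, each point a library and each bar the mean of the 2 libraries, with every y axis starting at 0. ZFP42 and CBR1 are lowest on day 2, IGFBP5, ACTC1, ACTA1 and NPPB are highest there, CER1 and CXCR4 descend from day 1, and POU5F1 lies between 722 and 811 FPKM throughout.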

How the data were processed

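FPKM values of 45961 gene numbers in 8 libraries were deposited by the authors in 1 table. HISAT2 2.1.0, StringTie 1.3.3b and the build GRCh38.p12 are named in the submitters' processing notes, without settings. All 8 value columns were used, and FPKM gives no read numbers.

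In the deposited table many values stand on other genes' rows, in an order that a text sort of gene number joined to value explains, with tab and decimal point ignored. Under that rule the 3394 numbers that are the start of a longer one may exchange positions. In 7 libraries the allowed order closest to D1_Co replicate 2 was found by dynamic programming (absolute log2(FPKM + 0.1) difference capped at 4). All 7 had an allowed order, and 0 had one under either of the control rules. All libraries are drawn to 1 reference, so differences on moved rows can be understated. The filter of 1 FPKM on the mean left 13104 rows, of which 12449 carry a name matching their gene number in a RefSeq table (GRCh38.p14) and were tested, 7965 in place and 4484 with a moved value; the other 655 held 3.93% to 4.43% of FPKM. Over all rows 43963 numbers were in that table and 36028 names matched. A row is called unsettled (435) where 10 random changes of the reference (SD 0.5) moved a value by over 0.25. The order alone fixes 6036 rows. Overlapping exons means at least 10% of exonic bases shared with another gene.

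limma 3.58.1 (R 4.3.3) was fitted to log2(FPKM + 1), pseudocount 1, with 8 libraries and 4 group means (4 residual and 3.19 prior degrees of freedom, intensity trend, two-sided tests, Benjamini-Hochberg over all genes, calls under 0.05). The procedure was tested on simulated data. Genes are named by rule: the 12 largest rises and falls without overlap on settled rows, up to 4 called members with the largest differences per gene list, the 8 largest day 2 peaks and troughs outside the range of days 1 and 3, and fixed regulators; some genes that meet these rules are not reported here, fewer list members are named where calls rested on single libraries, and MT1M and MT1X complete their family. The members and the 44 lists were chosen with earlier results of these data known. Alternatives covered pseudocount, filter, scaling, row restoration, libraries fitted and each library left out.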

Additional observations from a re-analysis of the deposited data

Results flagged for a closer look

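Genes whose day 2 co-culture libraries lay outside the range of days 1 and 3, with a tested difference between day 2 and the mean of the other days, are given here as values. On the log2(FPKM + 1) scale the differences above the other days were 1.81 for MIR302C, 1.68 for IGFBP5, 1.57 for ACTC1, 1.51 for ACTG2, 1.49 for ACTA1, 1.45 for GLIPR1, 1.43 for MIR3064 and 1.36 for NPPB. Those below were -1.53 for ZFP42, -1.36 for S100A6, -1.25 for CBR1, -1.03 for the long RNA LNCPRESS1, -0.81 for NDUFA5, a complex I subunit, -0.80 for RGS16, a regulator of G protein signalling, and -0.74 for ECHDC3, an enoyl-CoA hydratase. MIR302C and MIR3064 are rows of microRNA genes, whose mature RNAs polyA libraries do not measure, and the exons of MIR3064 overlap those of another gene. The calls of MIR302C, MIR3064, NPPB, LNCPRESS1, NDUFA5, RGS16 and ECHDC3 were lost without D2_Co replicate 1 and without D2_Co replicate 3.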

How the results depend on the processing

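Calls between D2_Co and D3_Control (3116, with 1544 higher and 1572 lower) numbered 1982 (938 and 1044) among rows in place and 1441 (725 and 716) among rows fixed by the order alone, an alternative chosen after seeing the data; both test fewer genes. With 1 library left out they lay between 1496 and 2895, with 905 to 1471 higher and 555 to 1444 lower. Day 2 against the mean of days 1 and 3 (548, with 340 and 208) gave 241 (158 and 83) with no filter on low values, 282 (192 and 90) with only the libraries compared, 349 with 116 lower and no intensity trend, 306 (187 and 119) among rows in place, 1319 (698 and 621) with rows as deposited and 214 (131 and 83) among rows fixed by the order. Leaving out 1 library gave 28 to 355 calls, 19 to 244 higher and 9 to 111 lower. D2_Co and D3_Control share only replicate number 3, and the deviations of same-numbered libraries correlated at -0.03 to 0.04. With 2 libraries a group the deviations mirror each other, so these values cannot show whether the numbers pair samples. A replicate block gave 2086 calls with 912 lower, and 44 (38 and 6) for day 2 against its neighbours. Of 22 alternative fits, rows as deposited turned the direction of 15 named genes against D3_Control: ACTA1 (-2.45), ACTC1 (-4.01), AXL (-0.14), BUB3 (0.013), FKBP4 (4.26), IGFBP3 (-1.89), MT1H (0.43), MT2A (5.80), NAT10 (1.82), NUAK2 (-0.51), PLAT (-0.0058), PLAU (-0.019), TERF1 (0.96), TFAP2C (-3.48) and TNFAIP2 (-2.47). They also turned ACTC1 (-2.52), ACTG2 (-1.09) and ACTA1 (-0.79) on day 2 against its neighbours. DHRS2 was 0.19 in a second search against D3_Control. The following tally covers named genes only, and fewer list members were named where calls rested on single libraries. It therefore does not measure the stability of calls over all genes. The named genes gave 2636 gene and fit pairs with call and direction kept, 95 with a call lost, 7 with one gained and 19 turned. The cause was not tested except where fewer genes or samples enter. Depth is unknown, so no floor is given for listed zeros.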
